A study of Mus musculus with 11 samples.

Results

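The 9 genes described here, Scd1, Scd3, Elovl3, Awat1, Awat2, Dgat2l6, Mc5r, Fa2h and Far2, were taken by symbol as a list of sebaceous gland lipid genes. All 9 were found among the 49315 genes of a table of read counts from neonatal mouse skin, and all 9 were among the 18375 genes with enough reads to be tested. The skin came from Foxp3-DTR mice, in which the diphtheria toxin receptor is expressed under the control of Foxp3, the transcription factor that defines regulatory T cells (Tregs), so that diphtheria toxin (DT) removes these cells. Every mouse, controls included, carried this allele. ΔETreg mice (EarlyDT in the labels, n = 3) received DT at 30 ng per g on postnatal days 6 and 8 and were harvested on day 9. ΔLTreg mice (LateDT, n = 3) received DT on days 10 and 12 and were harvested on day 13, and ΔTreg mice (FullDT, n = 3) received 4 doses from day 6 to day 12 and were also harvested on day 13. Control mice (PBS, n = 2) received PBS, and their harvest day is not given by the labels. The paper calls its comparisons with controls age-matched, on day 9 for ΔETreg and on day 13 for ΔLTreg mice. The 2 control mice may therefore differ in age. RNA of whole skin was sequenced, 1 library per mouse, so a lower level of a sebocyte gene can stand for fewer sebocytes or for less RNA per sebocyte, and these cannot be told apart here.

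Sebaceous glands are small lipid-secreting glands attached to hair follicles. Their cells, the sebocytes, fill with lipid droplets, burst and release sebum, a mixture rich in wax esters, triglycerides and other neutral lipids that coats the hair and the skin surface. The 9 genes cover successive steps of this process. Stearoyl-CoA desaturases (Scd1, Scd3) place a double bond in long fatty acids, and Elovl3 is an elongase of very long chain fatty acids. Far2 reduces fatty acyl-CoA to fatty alcohol, which the acyl-CoA wax alcohol acyltransferases Awat1 and Awat2 join to a fatty acid to form wax esters, and Dgat2l6 belongs to the same acyltransferase family. Fa2h adds a hydroxyl group to fatty acids of sphingolipids, and Mc5r is the melanocortin receptor of sebocytes. Some of them are not restricted to sebocytes: Scd1 is also a gene of adipocytes and Fa2h of myelinating Schwann cells.

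In skin of the 4-dose ΔTreg mice 5 of the 9 genes were lower than in controls and none was higher, whereas 9.39% of all genes tested were lower (edgeR, adjusted p under 0.05). Scd3 and Awat2 fell by about the same amount, to 0.459 and 0.508 of the control level, followed by Dgat2l6 at 0.655, Fa2h at 0.685 and Mc5r at 0.767 of it. Against the ΔLTreg mice, which were harvested on the same day after the last 2 doses alone, 5 genes were lower again, beside 6.11% of all genes: Scd3, Fa2h, Awat2, Far2 and Scd1. Neither 2-dose group differed from controls in any of the 9 genes at an adjusted p under 0.05. Of all genes, 0.00544% passed in ΔETreg and 4.55% in ΔLTreg mice. Elovl3 and Awat1 passed the test in no comparison, except with no filter on low counts, where Awat1 was lower in ΔTreg mice than in controls (adjusted p = 0.0422) and Elovl3 higher in ΔETreg than in ΔLTreg mice (adjusted p = 0.0226).

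The libraries held 23377571 to 34159435 assigned reads. A median chi-square per gene of 0.988 to 3.24 between mice of a group, against 0.455 from counting error alone, gave no pair of libraries that agreed within sampling noise. Reads of Xist and Ddx3y gave 1 female and 1 male control, 1 female and 2 male ΔETreg mice, and 2 female and 1 male mice in each of the ΔLTreg and ΔTreg groups. Foxp3 itself gave few reads, with 20 and 14 reads in controls, 10, 16 and 11 in ΔETreg, 23, 13 and 13 in ΔLTreg mice and 9, 19 and 18 in ΔTreg libraries. Foxp3 was not lower than in controls by the test on any of the 3 schedules, with log2 fold changes of -0.49 ± 0.32, -0.23 ± 0.31 and -0.30 ± 0.31 (SE) in turn. Their 95% intervals were -1.20 to 0.22, -0.92 to 0.45 and -0.995 to 0.39. These leave out a fall of Foxp3 RNA beyond their lower ends, but a smaller fall cannot be told from no change. With 9 to 23 reads per library, the extent of Treg loss at harvest cannot be judged from Foxp3 here. The paper reports efficient depletion of skin Tregs by flow cytometry in ΔETreg and ΔLTreg mice on the day after the last dose.

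The genes differed widely in level, compared here per length as TMM-normalised CPM (read counts scaled to a common library total) per kilobase of exon. In controls Scd1 stood highest at 177 ± 23.6 (SD, n = 2), followed by Fa2h at 65.4 ± 5.30, Scd3 at 37.6 ± 7.43 and Elovl3 at 37.0 ± 3.88. Awat1 at 22.9 ± 1.46 and Far2 at 20.0 ± 1.43 came next, ahead of Awat2 at 8.94 ± 2.07, Mc5r at 4.86 ± 0.354 and Dgat2l6 at 2.31 ± 0.379. Scd3 and Elovl3 differed by less than the spread between the 2 control mice, and the other neighbours in this order by more than the SD of either gene. In ΔTreg mice the order was no longer the same, with Scd3 at 17.3 ± 1.13 (SD, n = 3) below Elovl3 at 35.7 ± 5.59 and near Awat1 at 18.4 ± 4.14 CPM per kilobase. Without division by length Scd1 alone supplied between 57.3% and 64.7% of the summed CPM of the 9 genes in each library.

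**Figure D1:**
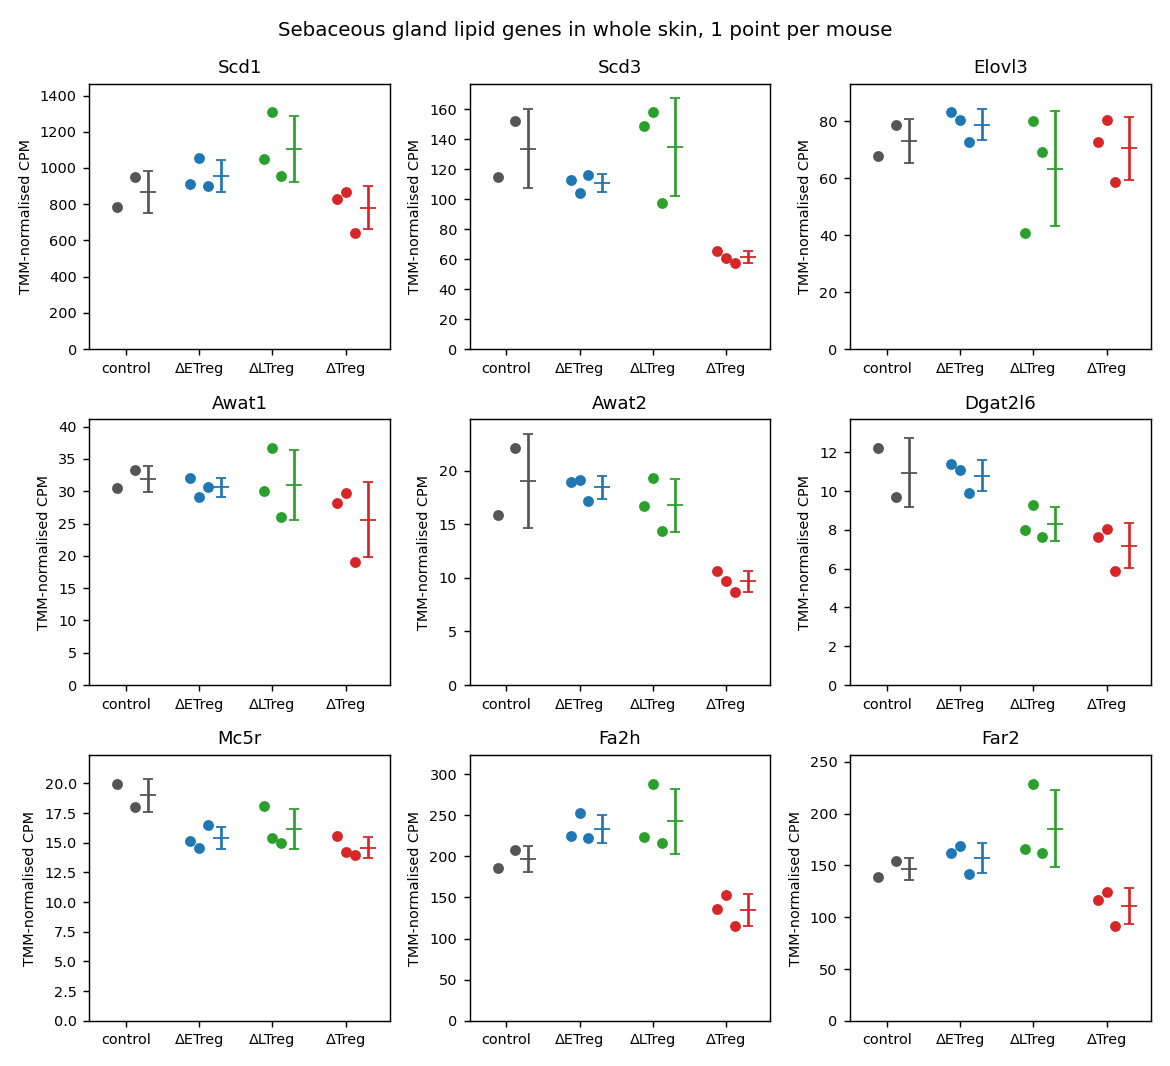
TMM-normalised CPM (linear axis from 0) of each of the 9 genes in each mouse, with 1 point per mouse and the group mean ± SD beside the points, for control (n = 2), ΔETreg, ΔLTreg and ΔTreg mice (n = 3 each). The 3 ΔTreg mice lie below every other mouse for Scd3, Awat2, Fa2h and Far2, whereas Elovl3 overlaps in all groups.

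Scd3 lies on chromosome 19 (GRCm38 chr19:44203269-44244016, plus strand) near Scd1 (chr19:44394455-44407879, minus strand). Its level was 115 and 152 CPM in the control mice, 113, 104 and 116 in ΔETreg, 149, 158 and 97.3 in ΔLTreg mice and 65.6, 60.8 and 57.6 in ΔTreg mice. The 3 ΔTreg values were the lowest of all 11, and the other groups overlapped. The log2 fold change was -1.12 ± 0.17 (SE) against controls and -1.14 ± 0.16 against ΔLTreg mice (edgeR adjusted p = 0.00105 and 0.000652). Both calls held when any 1 mouse was left out, with values from -1.32 to -0.92 against controls and from -1.32 to -1.01 against ΔLTreg mice.

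Scd1, the main desaturase of skin, did not follow Scd3 against controls. Its level was 785 and 948 CPM in control, 909, 1056 and 899 in ΔETreg, 1048, 1308 and 957 in ΔLTreg mice and 831, 867 and 644 in ΔTreg mice. The ΔTreg mice overlapped with controls, and all 3 lay below every ΔLTreg mouse. The log2 fold change was -0.15 ± 0.16 against controls (95% interval -0.50 to 0.20, adjusted p = 0.543) and -0.50 ± 0.14 against ΔLTreg mice (adjusted p = 0.0327). The call against ΔLTreg mice was lost without ΔLTreg mouse 2 (-0.37, adjusted p = 0.107), without ΔTreg mouse 1 (-0.55, adjusted p = 0.0635), without ΔTreg mouse 3 (-0.38, adjusted p = 0.114) and with the libraries of these 2 groups alone (adjusted p = 0.0681).

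The difference between the 2 desaturases was then read within each library, where depth and scaling cancel. This ratio was chosen after the values of both genes had been seen. There were 14.7 and 16.1 reads of Scd3 per 100 reads of Scd1 in control, 12.4, 9.87 and 12.9 in ΔETreg, 14.2, 12.1 and 10.2 in ΔLTreg mice and 7.90, 7.01 and 8.95 in ΔTreg mice. The ΔTreg ratios lay below all others. The two-sided exact permutation p was 0.1 against controls and 0.1 against ΔLTreg mice, which is the smallest value that these group sizes allow. Every ratio of the 2-dose groups also lay below both controls, with an exact permutation p of 0.1 for ΔETreg and 0.2 for ΔLTreg mice. The pair shares little sequence: 0.739% of the 150-base windows of the Scd1 transcripts and 1.06% of those of Scd3 occur in the other gene, and 4.56% and 6.54% of their 50-base windows occur in some other gene. Reads that lie wholly within such a window cannot be assigned to one gene.

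Awat2 (chrX:100402221-100442717, minus strand) and Awat1 (chrX:100572251-100578205, plus strand) are neighbouring wax synthase genes on the X chromosome, with Dgat2l6 (chrX:100524838-100546144, plus strand) between them. Awat2 gave 15.9 and 22.1 CPM in control, 18.9, 19.2 and 17.2 in ΔETreg, 16.7, 19.3 and 14.4 in ΔLTreg mice and 10.6, 9.68 and 8.69 in ΔTreg mice. Again the 3 ΔTreg mice were below all others. Awat2 changed by a log2 value of -0.98 ± 0.15 against controls (adjusted p = 0.00109) and -0.80 ± 0.14 against ΔLTreg mice (adjusted p = 0.00257), and these calls, like those of Scd3, held when any 1 mouse was left out.

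Awat1, which catalyses the same kind of reaction, gave 30.4 and 33.3 CPM in control, 32.0, 29.1 and 30.7 in ΔETreg, 30.1, 36.7 and 26.0 in ΔLTreg mice and 28.1, 29.7 and 19.0 in ΔTreg mice. Each ΔTreg mouse was below both controls, though ΔTreg mice 1 and 2 by little, and the group overlapped with ΔLTreg mice. The log2 fold change of -0.32 ± 0.18 against controls did not pass the test (95% interval -0.70 to 0.07, adjusted p = 0.231). Read within libraries, 52.2 and 66.4 reads of Awat2 were found per 100 reads of Awat1 in control, 59.1, 65.8 and 56.0 in ΔETreg, 55.3, 52.6 and 55.3 in ΔLTreg mice and 37.8, 32.6 and 45.7 in ΔTreg mice. The ΔTreg ratios were the 3 lowest of the 11, with an exact permutation p of 0.2 against controls and 0.1 against ΔLTreg mice, where 0.1 is the smallest that can be reached. This ratio too was chosen after the values had been seen.

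**Figure D2:**
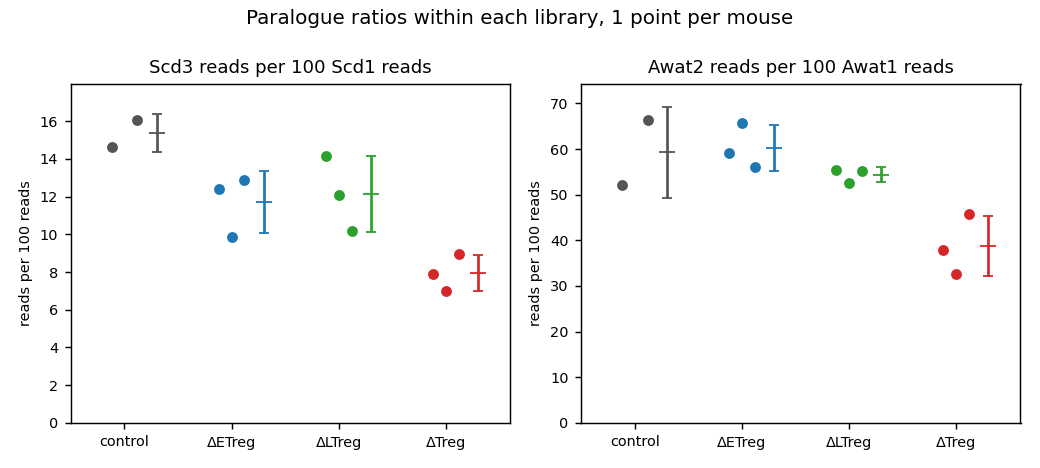
Reads of Scd3 per 100 reads of Scd1 (left) and reads of Awat2 per 100 reads of Awat1 (right) within each library, 1 point per mouse with the group mean ± SD beside the points. In ΔTreg mice the ratios ran from 7.01 to 8.95 and from 32.6 to 45.7, below those of the other 8 mice.

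Dgat2l6 was the gene with the lowest level of the 9 and gave 12.2 and 9.68 CPM in control, 11.4, 11.1 and 9.90 in ΔETreg, 8.02, 9.29 and 7.64 in ΔLTreg mice and 7.63, 8.05 and 5.87 in ΔTreg mice. Both groups harvested on day 13 lay below both controls and all ΔETreg mice. Its log2 fold change was -0.61 ± 0.15 for ΔTreg (adjusted p = 0.016) and -0.40 ± 0.15 for ΔLTreg mice (adjusted p = 0.165) against controls, and the 2 day 13 groups differed by -0.21 ± 0.14 (adjusted p = 0.346). Unlike Scd3 and Awat2, the call of Dgat2l6 against controls was lost without control mouse 1 (-0.43, adjusted p = 0.129).

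The sequence upstream of the transcription start is shown for the wax synthase pair and for Scd3, since Awat2 and Scd3 passed the test against controls and Awat1 did not. The windows run from 250 bases before the start to 50 bases after it and come from the RefSeq promoter table of GRCm38.p6, from which windows of 5 of the 9 genes were used (Far2, Scd3, Awat2, Dgat2l6 and Awat1), and Scd1, Elovl3, Mc5r and Fa2h were left out. For Awat2, which has 2 starts in the table, the one further upstream is shown. Each is written 5′ to 3′ on the strand of the gene, and capitals mark the CCAAT box, read as CCAAT or, for a match on the opposite strand, as ATTGG. The windows are chr19:44203038-44203337 (plus strand), chrX:100442668-100442967 (minus strand) and chrX:100571997-100572296 (plus strand).
Scd3: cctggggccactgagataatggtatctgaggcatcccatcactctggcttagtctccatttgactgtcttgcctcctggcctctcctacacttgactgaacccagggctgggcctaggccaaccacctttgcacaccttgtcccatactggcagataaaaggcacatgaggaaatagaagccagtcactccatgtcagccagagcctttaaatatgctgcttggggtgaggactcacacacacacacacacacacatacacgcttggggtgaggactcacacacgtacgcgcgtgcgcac
Awat2: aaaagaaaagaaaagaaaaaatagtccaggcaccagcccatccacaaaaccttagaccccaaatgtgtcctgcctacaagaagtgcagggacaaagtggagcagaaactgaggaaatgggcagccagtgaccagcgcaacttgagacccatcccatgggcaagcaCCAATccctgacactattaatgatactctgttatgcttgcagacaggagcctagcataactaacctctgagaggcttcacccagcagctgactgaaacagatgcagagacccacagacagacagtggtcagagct
Awat1: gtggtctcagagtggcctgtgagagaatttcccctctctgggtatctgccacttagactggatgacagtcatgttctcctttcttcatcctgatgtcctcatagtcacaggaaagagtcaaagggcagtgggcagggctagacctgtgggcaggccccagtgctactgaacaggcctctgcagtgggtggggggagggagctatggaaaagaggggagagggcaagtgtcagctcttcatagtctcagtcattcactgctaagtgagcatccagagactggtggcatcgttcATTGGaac
The CCAAT box, a general promoter element, began 85 bases before the start of Awat2 (position -85), and in Awat1 a match on the opposite strand lay inside the transcribed part, at position 43. It occurred on either strand in 37.4% of the 32851 mouse promoter windows of the table. Scd3 held none. Each of 4 other motifs was searched on both strands and was found in none of the windows of these 5 genes. An E-box core (CACGTG) was present in 7.15% of all windows and a sterol response element (TCACNCCAC) in 1.24% of them. A nuclear receptor binding element (AGGTCA) was present in 16.3% and the TATA box (TATAAA) in 13.6%. The absence of these letters says nothing of the factors that bind them.

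Far2 (chr6:148047259-148182758, plus strand), the fatty alcohol-forming step that supplies wax synthesis, gave 139 and 154 CPM in control, 162, 169 and 141 in ΔETreg, 166, 229 and 162 in ΔLTreg mice and 117, 125 and 91.4 in ΔTreg mice. The ΔTreg mice lay below all 8 others. The log2 fold change was -0.74 ± 0.14 against ΔLTreg (adjusted p = 0.00466) and -0.40 ± 0.16 against control mice, which did not pass the test (adjusted p = 0.0967) except with the libraries of these 2 groups alone (adjusted p = 0.049) or with no filter on low counts (adjusted p = 0.000512). Its exons share 837 bases with Ergic2 and 81 with Far2os2 on the opposite strand, and whether strand was used in counting is not stated, so some of its reads could belong to those genes.

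Fa2h (chr8:111345135-111393824, minus strand) gave 185 and 208 CPM in control, 224, 252 and 222 in ΔETreg, 224, 288 and 217 in ΔLTreg mice and 136, 153 and 115 in ΔTreg mice. All mice of both 2-dose groups were above both controls, and all ΔTreg mice were below them. On the log2 scale Fa2h differed by -0.55 ± 0.14 against controls (adjusted p = 0.016), -0.85 ± 0.12 against ΔLTreg (adjusted p = 0.000818) and -0.79 ± 0.12 against ΔETreg mice (adjusted p = 0.000858). The call against controls was lost without control mouse 2 (-0.47, adjusted p = 0.129).

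Mc5r (chr18:68337596-68342446, plus strand), the receptor of the list, gave 20.0 and 18.0 CPM in control, 15.1, 14.6 and 16.5 in ΔETreg, 18.1, 15.4 and 14.9 in ΔLTreg mice and 15.6, 14.2 and 13.9 in ΔTreg mice. Here the controls were the group that stood apart, since all mice treated with DT, with the exception of ΔLTreg mouse 1, lay below both of them. The log2 fold change against controls was -0.31 ± 0.10 for ΔETreg (unadjusted p = 0.0109, adjusted p = 1 by edgeR), -0.24 ± 0.10 for ΔLTreg (adjusted p = 0.211) and -0.38 ± 0.10 for ΔTreg mice (adjusted p = 0.019). The last call was lost without control mouse 1 (-0.31, adjusted p = 0.114), ΔTreg mouse 2 (-0.37, adjusted p = 0.0601) or ΔTreg mouse 3 (-0.35, adjusted p = 0.0614).

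Elovl3 (chr19:46131897-46135694, plus strand) gave 67.7 and 78.6 CPM in control, 83.2, 80.6 and 72.7 in ΔETreg, 40.9, 80.0 and 69.3 in ΔLTreg mice and 72.7, 80.4 and 58.6 in ΔTreg mice. No group stood apart. The lowest value came from ΔLTreg mouse 1, in which Scd3, Awat2 and Fa2h were within the range of the other mice of the group. With ΔTreg mice the log2 fold change against controls was -0.05 ± 0.22, and its 95% interval of -0.54 to 0.44 allows a change of the size of that of Mc5r but not one of that of Scd3.

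Counted together, 7 of the 9 genes had all ΔTreg mice below both controls, beside 25.8% of all genes. The median log2 fold change of the 9 was -0.40, against -0.0059 over all genes tested, and all 9 values were negative. Against ΔLTreg mice 5 of 9 did not overlap and were lower (16.7% of all genes), with a median of -0.50 (-0.0044 over all genes). Against ΔETreg mice 5 of 9 were lower by the test, beside 9.81% of all genes, with 6 of 9 lower without overlap (21.7%) and a median of -0.51 (-0.0019). The comparisons share the ΔTreg mice. ΔETreg mice were younger at harvest and the harvest day of each control is not given by the labels, so age and schedule cannot be told apart against either group, and ΔLTreg mice are the group of the same age. Scd3, Awat2 and Fa2h were lower in each of these comparisons. The count against controls was 3 of 9 without control mouse 1, which ended the calls of Dgat2l6 and Mc5r.

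In the comparison with ΔETreg mice the log2 fold change was -0.94 ± 0.14 for Awat2 (adjusted p = 0.000621), -0.86 ± 0.16 for Scd3 (adjusted p = 0.00266) and -0.59 ± 0.14 for Dgat2l6 (adjusted p = 0.00993). That of Far2 was -0.51 ± 0.14 (adjusted p = 0.0255), a call that was lost without ΔETreg mouse 1 (-0.49, adjusted p = 0.0743), ΔETreg mouse 2 (-0.45, 0.0888), ΔTreg mouse 1 (-0.55, 0.0528) or ΔTreg mouse 3 (-0.38, 0.0923).

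**Figure D3:**
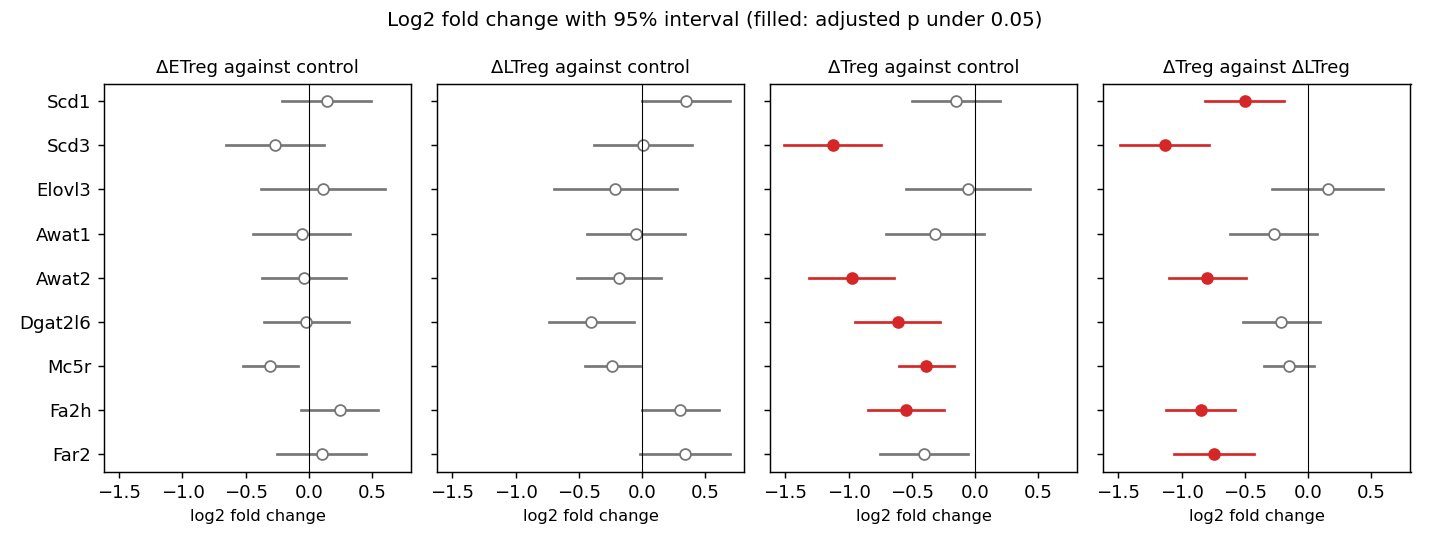
Log2 fold change of each gene with its 95% interval from edgeR in 4 comparisons, filled red circles marking genes lower at an adjusted p under 0.05 and open grey circles the others. Scd3 lies near -1.1 and Awat2 at -0.98 and -0.80 in the panels of ΔTreg mice, while the panels of the 2-dose groups hold open circles alone.

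In ΔETreg mice 0 of the 9 genes passed the test against controls, where 0.00544% of all genes (1 gene) did. At an unadjusted p under 0.05 it was 1 of 9, Mc5r, beside 4.75% of all genes. The median log2 fold change was -0.02 (-0.0098 over all genes), and the values ran from -0.31 for Mc5r to 0.25 for Fa2h. The 95% interval of Scd3 reached from -0.65 to 0.12 and that of Awat2 from -0.37 to 0.29, and neither includes the change found in ΔTreg mice. DESeq2 called 0 of the 9 as well.

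In ΔLTreg mice 0 of the 9 genes passed the test against controls, beside 4.55% of all genes, and 2 (Dgat2l6 and Mc5r, both lower) had an unadjusted p under 0.05, beside 20.2% of all genes. DESeq2 called 0. Scd1, Fa2h and Far2 were higher in all 3 ΔLTreg mice than in both controls, with log2 values of 0.35 ± 0.16, 0.30 ± 0.14 and 0.34 ± 0.16 and adjusted p of 0.247, 0.249 and 0.269, and such a gap upward was found in 15% of all genes. These 3 passed the test when no filter on low counts was used (adjusted p = 0.00952, 0.0219 and 0.0108). Scd3 differed by 0.01 ± 0.18 (95% interval -0.38 to 0.40). Against each other, the 2-dose groups differed in 0 of 9 genes, beside 6.38% of all genes, with DESeq2 calling 0 as well. ΔETreg mice were younger at harvest than ΔLTreg mice, so age and schedule cannot be told apart in this comparison. Dgat2l6 was nearest to a call, 0.38 ± 0.14 higher in ΔETreg mice (unadjusted p = 0.0181, adjusted p = 0.126). It was the only one of the 9 with an unadjusted p under 0.05, beside 22.7% of all genes, and it was called with sex in the model (0.47, adjusted p = 0.0321).

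Mice of one group tended to be high or low for most of the genes at once. ΔTreg mouse 3 was the lowest of its group for 9 of 9 genes, ΔLTreg mouse 2 the highest for 8 of 9 and ΔLTreg mouse 3 the lowest for 8 of 9. The share of all genes with such an order was not counted, so whether it is particular to the 9 genes cannot be judged. ΔTreg mouse 3 was male and the other two of its group female, and the male mouse of the ΔLTreg group was mouse 3, while the male control was the higher control for 7 of 9 genes. The part of sex in these differences was not tested beyond a fit with sex as a covariate, in which 5 of 9 genes were lower than in controls.

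Across the 11 libraries the correlation of each gene's log2 CPM with the mean of the other 8 was highest for Awat2 (Pearson r = 0.91), Fa2h (0.89), Far2 (0.87), Awat1 (0.87) and Scd3 (0.85), lower for Scd1 (0.74) and Dgat2l6 (0.73), and lowest for Mc5r (0.33) and Elovl3 (0.16). The closest pairs were Fa2h and Far2 (0.96), Scd1 and Far2 (0.95) and Scd3 and Awat2 (0.93). These values describe libraries that share group differences, scaling and makeup. Among 14959 other genes, those most like the mean of the 9 were Elovl4, an elongase of very long chain fatty acids (r = 0.97), Sdr16c6, a short-chain dehydrogenase (0.96), Aadacl4 (0.96), Tmem45b (0.96) and Cyp1a1, a cytochrome P450 (0.96).

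Of these, Cyp1a1 gave 12.5 and 13.9 CPM in control mice and 5.97, 8.34 and 8.45 in ΔTreg mice, with a log2 fold change of -0.80 ± 0.14 (adjusted p = 0.00221). Elovl4 gave 567 and 639 CPM in control and 421, 512 and 532 in ΔTreg mice (-0.30 ± 0.13, adjusted p = 0.117). Chosen for their likeness to the 9 genes, they lend no further support to the pattern.

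The other members of the same enzyme families were counted from lists, against a background of 12.1% of all genes higher and 9.39% lower than controls in ΔTreg mice, and 10.7% higher and 6.11% lower than in ΔLTreg mice. Values of these other genes are given from the lowest to the highest mouse of a group. Where ΔTreg or ΔLTreg mice are compared with controls, age and schedule cannot be told apart in these lists or in those below. Among 8 other desaturases, 1 was lower and 1 higher in ΔTreg mice than in controls. The higher one was Degs2, which makes phytoceramide, at 4.22 and 5.15 CPM in control, 5.78, 5.91 and 5.95 in ΔETreg, 7.05, 7.84 and 7.87 in ΔLTreg mice and 11.7, 11.7 and 13.9 in ΔTreg mice, with no overlap between groups (1.40 ± 0.12 on the log2 scale, adjusted p = 2.74e-05). The lower one was Degs1 (-0.27 ± 0.08, adjusted p = 0.0291), and its call was lost without control mouse 2, ΔTreg mouse 1 or ΔTreg mouse 3 (adjusted p up to 0.192). Against ΔLTreg mice 2 of 8 were lower and 1 higher (Degs2, 0.71 ± 0.10, adjusted p = 0.000819). The lower ones were Fads2 (-0.71 ± 0.16, adjusted p = 0.0107) and Scd4 (-1.19 ± 0.30, adjusted p = 0.0195). Scd4 reached at most 3.22 CPM in any mouse and lost its call without ΔLTreg mouse 2, ΔTreg mouse 1 or ΔTreg mouse 2 (adjusted p up to 0.0723). Scd2 gave -0.53 ± 0.18 (adjusted p = 0.062).

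Elongases other than Elovl3 were lower in 3 of 5 genes tested against controls and 2 of 5 against ΔLTreg mice. Elovl6, which lengthens palmitate, gave 549 and 635 CPM in control, 680, 696 and 825 in ΔETreg, 701, 729 and 886 in ΔLTreg mice and 347, 390 and 401 in ΔTreg mice. Its log2 fold change was -0.64 ± 0.12 against controls (adjusted p = 0.00335) and -1.02 ± 0.11 against ΔLTreg mice (adjusted p = 0.00011), and both calls held when any 1 mouse was left out. Elovl5 was lower in both comparisons (-0.39 ± 0.10 and -0.62 ± 0.09, adjusted p = 0.0186 and 0.000905), the first call being lost without control mouse 2 or ΔTreg mouse 3 (adjusted p up to 0.212). Elovl7 was lower than controls in ΔTreg mice (-0.28 ± 0.07, adjusted p = 0.0169) and in ΔLTreg mice (-0.30 ± 0.07, adjusted p = 0.0387). Both calls were lost without control mouse 1 or control mouse 2, the first also without ΔTreg mouse 3 and the second without ΔLTreg mouse 3 (adjusted p up to 0.0708 and 0.154).

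Acyltransferases outside the 9 genes gave 1 lower and 1 higher of 5 tested in ΔTreg mice against controls. Soat1, which esterifies cholesterol, was lower (-0.31 ± 0.10, adjusted p = 0.0418), and the call was lost without control mouse 2, ΔTreg mouse 1 or ΔTreg mouse 3 (adjusted p up to 0.358). Soat2 was higher but stayed under 1 CPM, at 0.120 and 0.175 in control and 0.495, 0.772 and 0.943 in ΔTreg mice (adjusted p = 0.0175), and its call was lost without control mouse 1, control mouse 2 or ΔTreg mouse 1 (adjusted p up to 0.129). The triglyceride synthases Dgat1 and Dgat2 gave 0.15 ± 0.10 and -0.08 ± 0.08 on the log2 scale and did not pass the test (adjusted p = 0.308 and 0.526).

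Of the 3 other genes of fatty alcohol and ether lipid synthesis, 2 were lower in ΔTreg mice than in controls. Far1, the paralogue of Far2, gave similar log2 fold changes in ΔTreg (-0.24 ± 0.05, adjusted p = 0.00667) and ΔLTreg mice (-0.25 ± 0.05, adjusted p = 0.0225), both lost without control mouse 1 (adjusted p = 0.0538 and 0.144). Between these groups Far1 differed by 0.01 ± 0.05, where Far2 differed by -0.74 ± 0.14. Gnpat was lower than controls in ΔTreg mice (-0.19 ± 0.05, adjusted p = 0.0165), except without control mouse 2 or ΔTreg mouse 1 (adjusted p up to 0.139), and Agps gave -0.26 ± 0.07 in ΔLTreg mice (adjusted p = 0.0734).

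Fatty acid synthesis and activation, the supply of these pathways, gave 1 lower and 1 higher of 12 genes against controls and 4 lower of 12 against ΔLTreg mice (Acss2, Fasn, Acacb and Slc25a1). Acss2, which makes acetyl-CoA from acetate, was lower in both (-0.48 ± 0.09 and -0.68 ± 0.08, adjusted p = 0.00313 and 0.000187), also with any 1 mouse left out. Fasn, the fatty acid synthase, gave 500 and 509 CPM in control, 438, 596 and 607 in ΔLTreg mice and 395, 414 and 430 in ΔTreg mice. Its log2 fold change of -0.41 ± 0.11 against ΔLTreg mice (adjusted p = 0.0285) kept its call in 1 of the 6 fits that left out a mouse, the one without ΔLTreg mouse 1 (adjusted p up to 0.0966 in the others). Slc25a1 kept its call against ΔLTreg mice in 3 of 6 such fits (edgeR adjusted p up to 0.0733 in the others) and Acacb in 6 of 6. The higher gene against controls was Acsl4, an acyl-CoA synthetase (0.44 ± 0.09, adjusted p = 0.00666, and 0.0596 without control mouse 2).

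**Figure D4:**
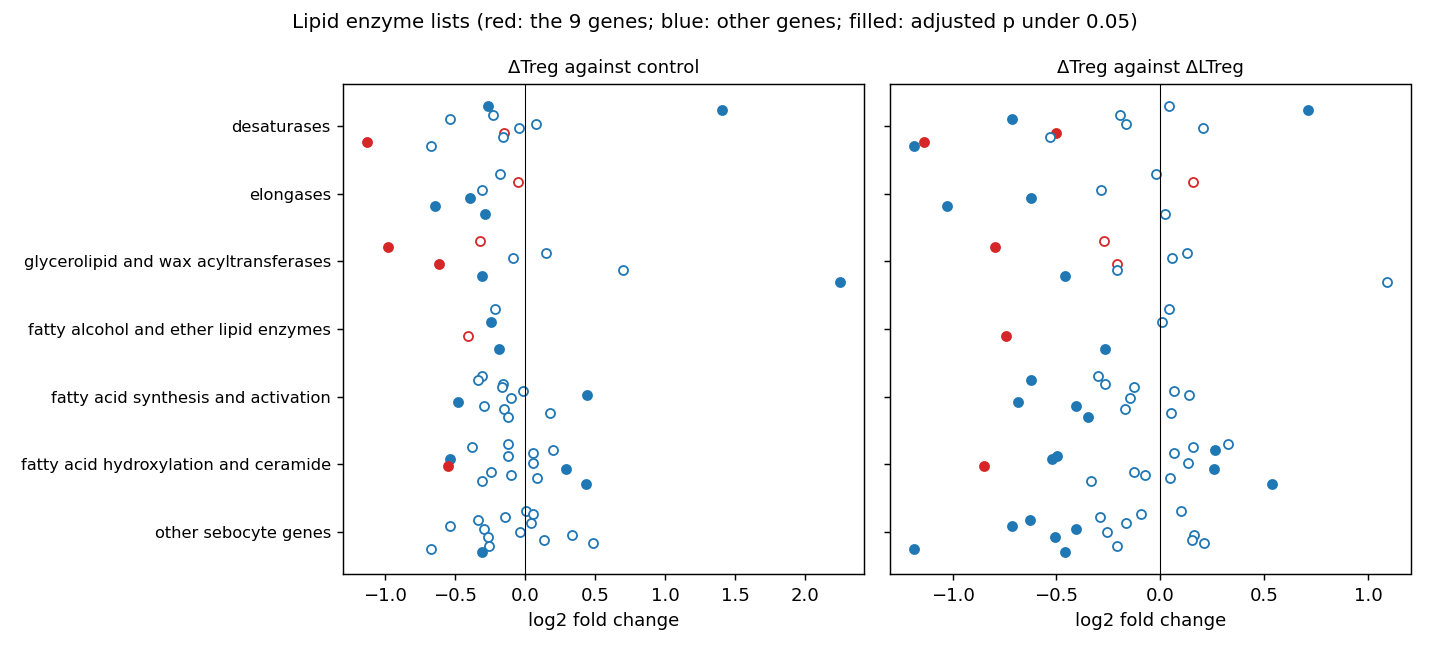
Log2 fold change of the genes tested in 7 lists (desaturases, elongases, acyltransferases, fatty alcohol and ether lipid enzymes, fatty acid synthesis, hydroxylation and ceramide enzymes, and other sebocyte genes) for ΔTreg mice against controls (left) and against ΔLTreg mice (right), 1 circle per gene, red for the 9 sebaceous lipid genes and blue for the others, filled at an adjusted p under 0.05. Scd3 and Awat2 are the leftmost genes of these lists against controls, and Degs2 (1.40) and Soat2 (2.25) lie furthest to the right.

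Of 15 other sebocyte genes 1 was lower in ΔTreg mice than in controls (Soat1) and none higher, with a median log2 fold change of -0.15. Against ΔLTreg mice 6 of 15 were lower (Soat1, Fasn, Fads2, Scd4, Cidea and Mgst1, of which Fasn and Scd4 depended on single mice as given for them), with a median of -0.26. Cidea, a lipid droplet protein, gave 31.1 and 36.6 CPM in control, 36.6, 41.6 and 46.2 in ΔLTreg mice and 23.3, 28.0 and 29.3 in ΔTreg mice (-0.63 ± 0.11 against ΔLTreg, adjusted p = 0.00262, and -0.33 ± 0.12 against control mice, adjusted p = 0.0764). Mgst1 differed by -0.51 ± 0.10 from ΔLTreg mice (adjusted p = 0.00683).

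Of the other sebocyte genes that did not pass the test against controls, 3 are described here, chosen after their values were seen. Pparg, the nuclear receptor that drives sebocyte differentiation, gave 10.9 and 12.3 CPM in control and 8.29, 10.2 and 10.5 in ΔTreg mice (-0.26 ± 0.14, adjusted p = 0.228). Krt79, a keratin of the upper follicle and the gland duct, gave 908 and 1186 CPM in control and 1263, 1312 and 1384 in ΔTreg mice (0.33 ± 0.15, adjusted p = 0.129). Plin2, which coats lipid droplets, differed by 0.14 ± 0.11 (adjusted p = 0.432). Summed over the 15 genes, CPM ran from 2787 to 2844 in control, 2644 to 3053 in ΔETreg, 2867 to 3429 in ΔLTreg mice and 2797 to 3054 in ΔTreg mice, whereas the sum of the 9 lipid genes ran from 1371 to 1624, 1526 to 1737, 1565 to 2144 and 1014 to 1347. Krt79 was the largest part of the sum of the 15, with a mean of 1047 CPM in control and 1320 CPM in ΔTreg mice. That sum therefore says little of the other genes of the list.

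Regulators of the gland and genes of its duct or stem cells gave 6 higher and 1 lower of 18 against controls. Among the lipid-sensing nuclear receptors, Nr1h2 (0.29 ± 0.06, adjusted p = 0.00352), Nr1h3 (0.96 ± 0.26, adjusted p = 0.0227) and Ppard (0.25 ± 0.06, adjusted p = 0.0127) were higher. The call of Nr1h3 was kept in 1 of 5 fits that left out a mouse, the one without ΔTreg mouse 2 (adjusted p up to 0.126 in the others), and that of Ppard was lost without control mouse 2 (adjusted p = 0.0989). Srebf1, the regulator of fatty acid synthesis genes, gave 0.07 ± 0.07 (adjusted p = 0.501). The other higher genes were Gata6, Plet1 and Defb6, of which Defb6, a defensin, was higher than controls in ΔTreg (0.52 ± 0.12, adjusted p = 0.0124) and in ΔLTreg mice (0.79 ± 0.12, adjusted p = 0.00652), both lost without control mouse 1 (adjusted p = 0.102 and 0.0591). Gata6 was lost without control mouse 2 or ΔTreg mouse 1 (adjusted p up to 0.208) and Plet1 without control mouse 2 (adjusted p = 0.0538). The lower gene was Lgr6, a stem cell gene of the upper follicle, at -0.47 ± 0.08 in both ΔTreg and ΔLTreg mice (adjusted p = 0.00212 and 0.0106, the latter 0.0716 without control mouse 1). Against ΔLTreg mice 1 of 18 was higher (Nr1h2, 0.24 ± 0.05, adjusted p = 0.0074) and 1 lower (Ppara, -0.60 ± 0.11, adjusted p = 0.00439).

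Beside Mc5r, 5 other genes of the melanocortin system could be tested. Mc1r, the receptor of melanocytes, gave 18.5 and 22.7 CPM in control, 14.6, 18.0 and 18.7 in ΔETreg, 17.5, 19.8 and 23.5 in ΔLTreg mice and 8.40, 10.6 and 11.7 in ΔTreg mice. The ΔTreg mice lay below all others, with a log2 fold change of -1.01 ± 0.17 against controls (adjusted p = 0.00148). Both this call and that against ΔLTreg mice (-0.98 ± 0.15, adjusted p = 0.00111) held when any 1 mouse was left out. The other 4 did not pass the test in ΔTreg mice against controls, Mc2r among them (-0.39 ± 0.37, adjusted p = 0.555). The agouti gene, symbol a, which encodes a melanocortin antagonist, had 7 and 5 reads in control, 7, 10 and 10 in ΔETreg, 0 in each ΔLTreg and 15, 9 and 13 in ΔTreg libraries. It was lower in ΔLTreg mice than in controls (-5.71 ± 1.13, edgeR adjusted p = 0.0272), a call lost without control mouse 1 or control mouse 2.

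Genes of other cell types in the biopsy were measured beside these. T cell and interferon genes were higher in ΔTreg mice for 12 of 12 genes, with a summed CPM of 59.7 to 82.0 in control, 68.4 to 80.1 in ΔETreg, 93.0 to 171 in ΔLTreg mice and 756 to 1018 in ΔTreg mice. Gzmb, a granule protease of cytotoxic cells, went from 0 and 0.105 CPM in control to 25.4, 25.4 and 26.8 CPM in ΔTreg mice. Of 6 Treg markers 4 were higher, the strongest by p being Icos and Tnfrsf18 (adjusted p = 9.84e-05 and 0.000147), and Foxp3 was not one of them. Reads of whole skin do not tell which cells gave this RNA, so the rise does not show more Tregs. Whether this immune signal has a part in the lower sebaceous genes was not tested.

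Among markers of the other cell types that express Scd1 or Fa2h, adipocyte genes gave 1 higher (Pnpla2, 0.38 ± 0.07, adjusted p = 0.00292) and none lower of 12 in ΔTreg mice against controls, with a summed CPM of 654 to 832 in control, 608 to 795 in ΔETreg, 823 to 940 in ΔLTreg mice and 679 to 759 in ΔTreg mice. Fabp4 was the largest part of this sum, with a mean of 329 CPM in control and 299 CPM in ΔTreg mice. The sum therefore says little of the adipocyte markers of low level. Against ΔLTreg mice 2 of 12 were lower, Adipoq (-2.19 ± 0.66, adjusted p = 0.0432) and Car3 (-0.91 ± 0.26, adjusted p = 0.0354), calls that were kept in 1 and in 2 of 6 fits that left out a mouse (adjusted p up to 0.144 and 0.127 in the others). Adiponectin, encoded by Adipoq, is a defining adipocyte product. The median log2 fold change of the 12 was -0.98 against ΔLTreg mice (-0.0044 over all genes), -0.10 against controls (-0.0059) and 0.61 in ΔLTreg mice against controls (0.0040). Further adipocyte markers, named after their values were seen, did not pass the test against ΔLTreg mice at log2 values of -1.70 ± 0.69 for Plin1, -1.63 ± 0.63 for Cidec and -1.99 ± 0.74 for Lep (adjusted p = 0.122, 0.105 and 0.0954). Against controls Adipoq gave -1.17 ± 0.74 and Plin1 -1.28 ± 0.76 (adjusted p = 0.295 and 0.269). Of the 4 groups ΔLTreg mice had the highest mean of the adipocyte sum and of Scd1, and the part of adipocyte RNA in the Scd1 difference was not tested. Myelinating Schwann cell genes gave 0 of 8 called by edgeR against controls or against ΔLTreg mice, with 1 (Prx, -0.52 ± 0.19, adjusted p = 0.0828) against controls and 0 against ΔLTreg mice at an unadjusted p under 0.05, and 1 and 0 by DESeq2. Against ΔETreg mice 3 of 8 were lower, beside 9.81% of all genes, with a median of -0.88 (-0.0019 over all genes), among them Prx (-1.01 ± 0.17, adjusted p = 0.00165) and Cldn19 (-1.08 ± 0.34, adjusted p = 0.0391). Cldn19 lost its call without ΔETreg mouse 1 (-0.53, adjusted p = 0.164), without ΔTreg mouse 1 (adjusted p = 0.123) and without ΔTreg mouse 3 (adjusted p = 0.124). The summed Schwann cell CPM was 356 and 287 in control, 760, 397 and 329 in ΔETreg, 302, 289 and 349 in ΔLTreg mice and 258, 317 and 259 in ΔTreg mice. ΔTreg mice overlapped with controls and ΔLTreg mice and lay below all ΔETreg mice, and the part of Schwann cell RNA in the Fa2h difference was not tested.

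The epidermal list gave 3 lower and 1 higher of 8 in ΔTreg mice against controls. The lower genes were the differentiation genes Flg (-2.32 ± 0.26, adjusted p = 0.00014), Krt1 (-1.93 ± 0.28, adjusted p = 0.000664) and Krt10 (-0.66 ± 0.20, adjusted p = 0.0357), and the higher one was the basal keratin Krt14 (0.40 ± 0.10, adjusted p = 0.018). Krt10 was called in 1 and Krt14 in 2 of 5 fits that left out a mouse (adjusted p up to 0.218 and 0.0789 in the others). Flg and Krt1 were also lower in ΔLTreg mice (-2.26 ± 0.26 and -1.50 ± 0.28, adjusted p = 0.00141 and 0.0141), Krt1 not without control mouse 1 (adjusted p = 0.116). Flg gave 240 and 375 CPM in control and 161 to 326 CPM in ΔETreg mice. In ΔLTreg mice it gave 51.2 to 73.2 and in ΔTreg mice 59.0 to 66.7 CPM. The harvest day of each control is not given by the labels, so age and schedule cannot be told apart in these differences. Hair shaft and inner root sheath genes gave 0 of 9 called by edgeR in ΔTreg mice, against controls or ΔLTreg mice, and 0 at an unadjusted p under 0.05 or by DESeq2. Skeletal muscle genes varied between biopsies, with sums of 1964 to 7338 CPM in ΔLTreg, 1900 to 3674 CPM in ΔTreg and 1560 to 1665 CPM in control mice. In ΔTreg mice 1 of 8 was higher than in controls (Myh4, 3.46 ± 0.73, edgeR adjusted p = 0.00624), a call lost without control mouse 2. In ΔLTreg mice 2 of 8 were higher, Myh4 (5.53 ± 0.76, adjusted p = 0.00278) and Actn3 (1.93 ± 0.48, adjusted p = 0.0468). Actn3 kept its call in 1 of 5 fits that left out a mouse. Between ΔTreg and ΔLTreg mice 2 of 8 were lower in ΔTreg mice.

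**Figure D5:**
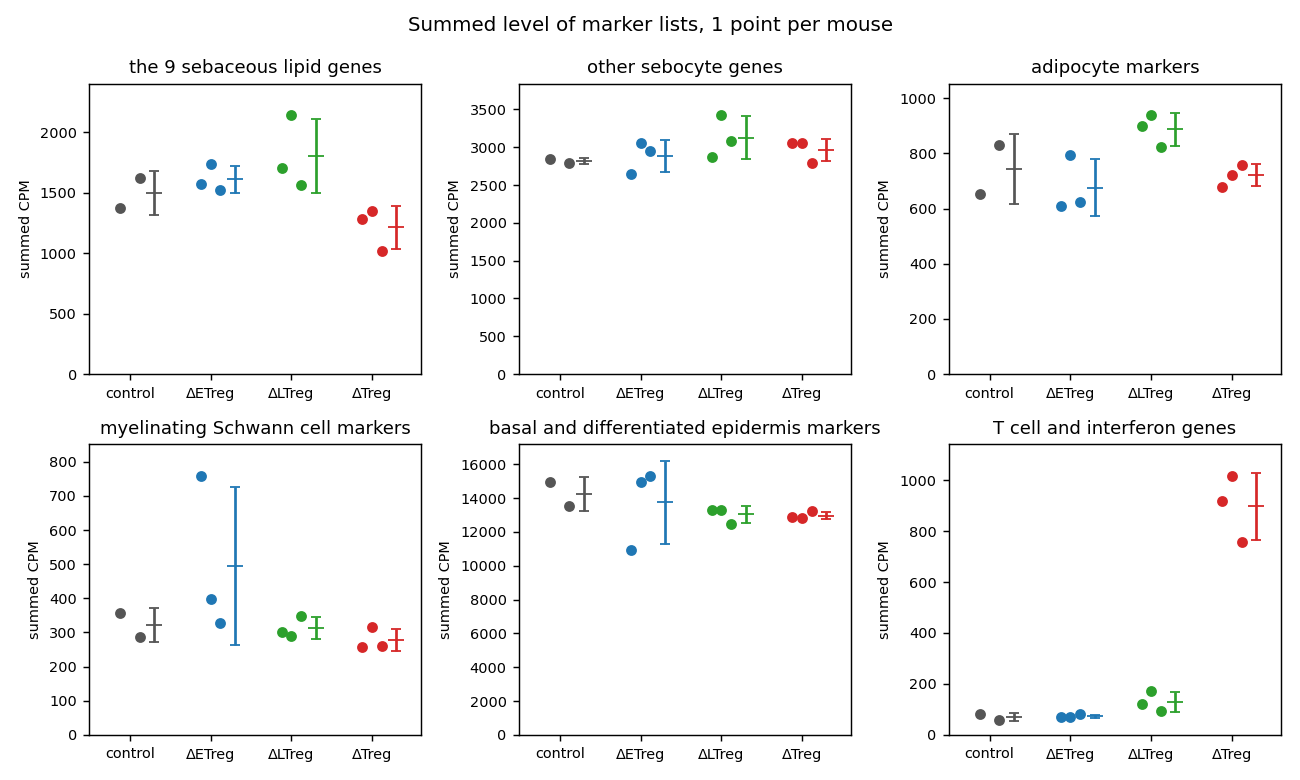
Summed TMM-normalised CPM of the 9 sebaceous lipid genes and of 5 marker lists, 1 point per mouse with the group mean ± SD beside the points and each axis starting at 0. The 9 genes reach 1014 to 1347 CPM in ΔTreg mice against 1371 to 1624 in controls, while the T cell and interferon genes reach 756 to 1018 against 59.7 to 82.0.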

How the data were processed

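RNA of whole skin biopsies was sequenced in 11 libraries, 1 per mouse. The deposited values are raw read counts per gene. The authors trimmed the reads (Trimmomatic 0.36), aligned them to GRCm38 (STAR 2.5.2b) and counted those uniquely assigned to exons (featureCounts of Subread 1.5.2). The annotation release and the use of strand are not given in the sources used here. Groups were taken from the labels, which give 1 batch for all samples. Library totals ran from 23377571 to 34159435 reads.

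The test was the quasi-likelihood test of edgeR 4.0.16 (R 4.3.3, limma 3.58.1), with filterByExpr by group, TMM factors, 1 mean per group over all 11 libraries, Benjamini-Hochberg adjustment over 18375 genes and calls at an adjusted p under 0.05, for 6 comparisons. Log2 CPM used a prior count of 2. Ratios of a pair of genes were tested by two-sided exact permutation over mice. DESeq2 1.42.0 (Wald test and size factors), library size alone, other filters, sex as a covariate, fits of 2 groups and leaving out each mouse were run as alternatives. With 2 controls, leaving one out leaves a lone mouse that is assumed to vary like the other groups. The code was tested on simulated data. Loci, exon lengths and shared windows came from GENCODE M21 (GRCm38).

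The 9 genes and the lists (16 with the 9) were chosen with earlier results of these data known. The rule for names took from each list the genes outside the 9 with the 2 smallest p in ΔTreg and in ΔLTreg mice against controls. Markers of other cell types are given mainly by their counts and sums, and some genes are not reported here. The 5 genes most like the mean of the 9 were ranked by Pearson r among genes of mean CPM of at least 1. Further genes, and both ratios, were named outside this rule, after their values were seen. Each edgeR p-value sets a group difference against a spread between mice that was estimated over all 11 libraries and moderated across genes. The exact permutation p-values compare arrangements of these mice alone.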

Additional observations from a re-analysis of the deposited data

How the results depend on the processing

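No paired analysis was possible because the replicate numbers of the libraries come from the order of the samples and pair no mice across groups. Of 94 calls of the genes named, 46 were kept in every fit that left out 1 mouse and 75 in all other settings. The count of the 9 genes called in ΔTreg mice against controls was 3 to 5 when 1 mouse was left out, with 3 without control mouse 1. With no filter on low counts (beyond 1 count) it was 3 instead of 0 for ΔLTreg mice against controls and 3 instead of 0 for ΔETreg against ΔLTreg mice, where it was 1 with sex as a covariate and 0 to 1 when 1 mouse was left out (1 without ΔLTreg mouse 3, Scd3 at -0.46, adjusted p = 0.0298). The values that changed sign belonged to no call. Leaving out 1 mouse gave log2 ranges against controls in ΔETreg mice of -0.12 to 0.0072 for Awat1, -0.26 to 0.21 for Awat2 and -0.18 to 0.16 for Dgat2l6 (0.018 with library size alone and 0.030 with sex). In ΔLTreg mice against controls they were -0.18 to 0.23 for Scd3 (-0.032 with sex), -0.40 to 0.029 for Elovl3, -0.18 to 0.067 for Awat1 and -0.40 to 0.074 for Awat2. For Elovl3 they were -0.16 to 0.067 in ΔTreg mice against controls and -0.084 to 0.35 against ΔLTreg mice. Between ΔETreg and ΔLTreg mice they were -0.11 to 0.13 for Awat1 (0.0086 with library size alone and 0.079 with sex), -0.12 to 0.020 for Mc5r and -0.13 to 0.084 for Fa2h. The log2 ratio of Awat2 to Awat1 gave -0.14 to 0.20 in ΔETreg and -0.29 to 0.058 in ΔLTreg mice against controls. Over all genes the calls moved by more than 1.5 times: from 1 to between 0 and 54 for ΔETreg mice against controls (8 by DESeq2), from 836 to 154 (2 groups alone) and 1790 (no filter) for ΔLTreg mice against controls, with 292 and 377 without control mouse 1 or 2, from 1173 to 540 and 2173 between the 2-dose groups, with 353 to 619 without one of the ΔETreg mice, from 3946 to 2026 for ΔTreg mice against controls without control mouse 2, and from 3096 to 1987 against ΔLTreg mice without ΔTreg mouse 1. The causes were not tested. Library size alone shifted the median of all genes by at most 0.044.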

Other observations

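Genes of ceramide synthesis and turnover other than Fa2h gave 2 higher and 1 lower of 13 in ΔTreg mice against controls. Ugcg, which makes glucosylceramide, was higher (0.44 ± 0.09 on the log2 scale, edgeR adjusted p = 0.00641, and 0.0845 without control mouse 2). The ceramide synthase gene Cers5 was lower (-0.54 ± 0.14, adjusted p = 0.0176), a call lost without control mouse 2, ΔTreg mouse 2 or ΔTreg mouse 3 (adjusted p up to 0.16). Against ΔLTreg mice 3 were higher and 2 lower. Ugcg was higher (0.54 ± 0.08, adjusted p = 0.00108), with Cers2 (0.26 ± 0.06, adjusted p = 0.0132, and 0.0574 without ΔTreg mouse 1). Cers4 was lower (-0.50 ± 0.09, adjusted p = 0.00256), with Cers5 (-0.52 ± 0.12, adjusted p = 0.0141, lost without ΔTreg mouse 2 or 3 at up to 0.0629).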
